A study of Mus musculus with 20 samples.

Results

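The promoters of the defensin genes were examined for DNA methylation in mouse sperm. They were taken as every promoter whose gene symbol begins with Defb (beta-defensins) or Defa (alpha-defensins), which gave 49 of the 22480 promoters measured, 43 of beta-defensins and 6 of alpha-defensins. Each promoter is a window of 2200 bases around the start of a gene, and methylated DNA in it was captured with a methyl-CpG binding domain protein and sequenced (MBD-seq). Sperm came from 20 males aged 8 weeks in 4 groups of 5, controls and DEHP-exposed males of the C57BL/6J and the FVB/N strain. In the DEHP groups the mother was given di(2-ethylhexyl) phthalate (DEHP), a plasticizer, by mouth at 300 mg/kg/day in corn oil from gestation day 9 to 19. Control mothers were given corn oil alone over the same days. The sperm had diffused out of cut epididymis and vas deferens, and the labels do not say which males share a litter.

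Defensins are small cationic, disulphide-bonded peptides that damage microbial membranes. Alpha-defensins in the mouse are made by Paneth cells of the small intestine. Beta-defensins are made by epithelia, and many of them are made by the epididymis and coat the surface of sperm during maturation. Both families lie in clusters of related copies. The sperm genome is largely methylated outside CpG islands, and MBD-seq counts rise with the number of methylated CG dinucleotides in a fragment, so that a promoter with few CG sites gives few reads however fully it is methylated.

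The 49 promoters fell into 7 clusters, counted as runs of one family with no gap above 1 Mb. Beta-defensins made up 3 promoters on chromosome 1, 5 on chromosome 14, 11 on chromosome 2 and blocks of 14 and 10 on chromosome 8. Alpha-defensins made up 2 pseudogene promoters and 4 others, both on chromosome 8. The chromosome 2 cluster ran from base 152464421 to 152625053 (mm10) and the chromosome 14 cluster from 62984311 to 63051960. No window overlapped another member's. In GENCODE, 48 windows held an exon of the gene under the same symbol. CG sites ran from 4 to 50 per window, with a median of 12, against a median of 45 over all promoters. The chromosome 2 windows held 12 to 50 CG sites with a median of 26, and the 6 alpha-defensin windows held 7 to 10.

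To show the contrast in CG content, the 300 bases richest in CG upstream of the gene's start and outside any exon are given for 6 promoters, 5 of which differed between groups (below) and 1 of which, Defb30, had many CG sites and few reads. Sequences are from the GRCm38 reference (mm10), written 5′ to 3′ along the gene's strand, with each CG in capitals.
Defb43 (chr14:63010347-63010646, plus strand): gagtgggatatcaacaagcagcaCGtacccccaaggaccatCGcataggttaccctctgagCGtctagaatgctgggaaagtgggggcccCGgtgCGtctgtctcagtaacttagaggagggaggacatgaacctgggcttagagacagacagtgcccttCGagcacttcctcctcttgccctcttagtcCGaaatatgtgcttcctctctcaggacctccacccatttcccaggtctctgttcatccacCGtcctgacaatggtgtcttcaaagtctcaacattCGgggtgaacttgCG
Defb47 (chr14:62997549-62997848, plus strand): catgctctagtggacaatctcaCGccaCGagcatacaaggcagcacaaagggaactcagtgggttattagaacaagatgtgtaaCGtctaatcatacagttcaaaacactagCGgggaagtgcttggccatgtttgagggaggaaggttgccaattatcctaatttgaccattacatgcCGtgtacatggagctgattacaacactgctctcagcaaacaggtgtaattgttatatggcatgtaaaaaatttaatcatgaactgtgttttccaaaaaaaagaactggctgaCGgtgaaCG
Defb22 (chr2:152490349-152490648, minus strand): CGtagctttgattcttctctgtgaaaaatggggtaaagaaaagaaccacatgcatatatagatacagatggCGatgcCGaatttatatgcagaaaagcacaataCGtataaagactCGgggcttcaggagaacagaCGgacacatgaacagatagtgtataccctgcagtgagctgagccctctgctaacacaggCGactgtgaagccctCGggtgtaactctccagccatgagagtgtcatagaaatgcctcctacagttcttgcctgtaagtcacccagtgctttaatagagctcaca
Defb30 (chr14:63049962-63050261, minus strand): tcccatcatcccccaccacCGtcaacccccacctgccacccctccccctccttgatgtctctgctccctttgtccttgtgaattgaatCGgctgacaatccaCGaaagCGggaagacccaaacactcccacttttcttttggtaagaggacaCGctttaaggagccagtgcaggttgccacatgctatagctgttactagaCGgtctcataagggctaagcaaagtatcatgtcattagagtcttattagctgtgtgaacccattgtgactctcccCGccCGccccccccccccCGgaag
Defb6 (chr8:19223855-19224154, plus strand): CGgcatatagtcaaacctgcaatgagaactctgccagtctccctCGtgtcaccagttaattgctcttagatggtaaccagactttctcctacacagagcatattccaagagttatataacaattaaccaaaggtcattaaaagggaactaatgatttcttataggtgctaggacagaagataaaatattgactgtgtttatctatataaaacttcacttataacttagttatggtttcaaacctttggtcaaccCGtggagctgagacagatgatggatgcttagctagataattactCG
Defb8 (chr8:19448795-19449094, minus strand): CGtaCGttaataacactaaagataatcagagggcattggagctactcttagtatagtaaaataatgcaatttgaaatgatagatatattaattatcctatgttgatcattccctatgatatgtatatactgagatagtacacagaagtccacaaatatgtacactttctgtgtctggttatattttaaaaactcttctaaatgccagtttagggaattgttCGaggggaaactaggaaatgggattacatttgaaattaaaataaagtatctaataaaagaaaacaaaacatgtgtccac
These stretches held 10 CG sites in Defb43, 7 in Defb47, 8 in Defb22 and 9 in Defb30, but 4 in Defb6 and 3 in Defb8. The whole windows held 28, 32, 18, 34, 8 and 7 CG sites in the same order.

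Reads at the defensin promoters were highest on chromosome 2 and at 2 of the 5 chromosome 14 promoters, Defb43 and Defb47, and lowest on chromosome 1 and among the alpha-defensins. All levels below are the authors' means of normalized reads per window over the 5 males of a group, followed by the authors' SD. Series of 4 values are in the order C57BL/6J controls, DEHP-exposed C57BL/6J, controls of FVB/N and FVB/N with DEHP. Values of single males are not analysed here, so each group is given by its mean and SD. The median over the 11 chromosome 2 promoters was 14.3, 15.1, 14.4 and 15.3 reads. The 5 chromosome 14 promoters had medians of 4.3, 4.5, 3.7 and 4.1 reads. The 14 promoters of the first chromosome 8 block had medians of 3.4, 5.8, 1.7 and 3.65 reads, and the 10 of the second had 2.6, 4.4, 2.1 and 4.75. The 3 chromosome 1 promoters had medians of 0.9, 1.6, 0.2 and 2.5. Over all 22480 promoters the medians were 5, 5.3, 3 and 4.9 reads.

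**Figure D1:**
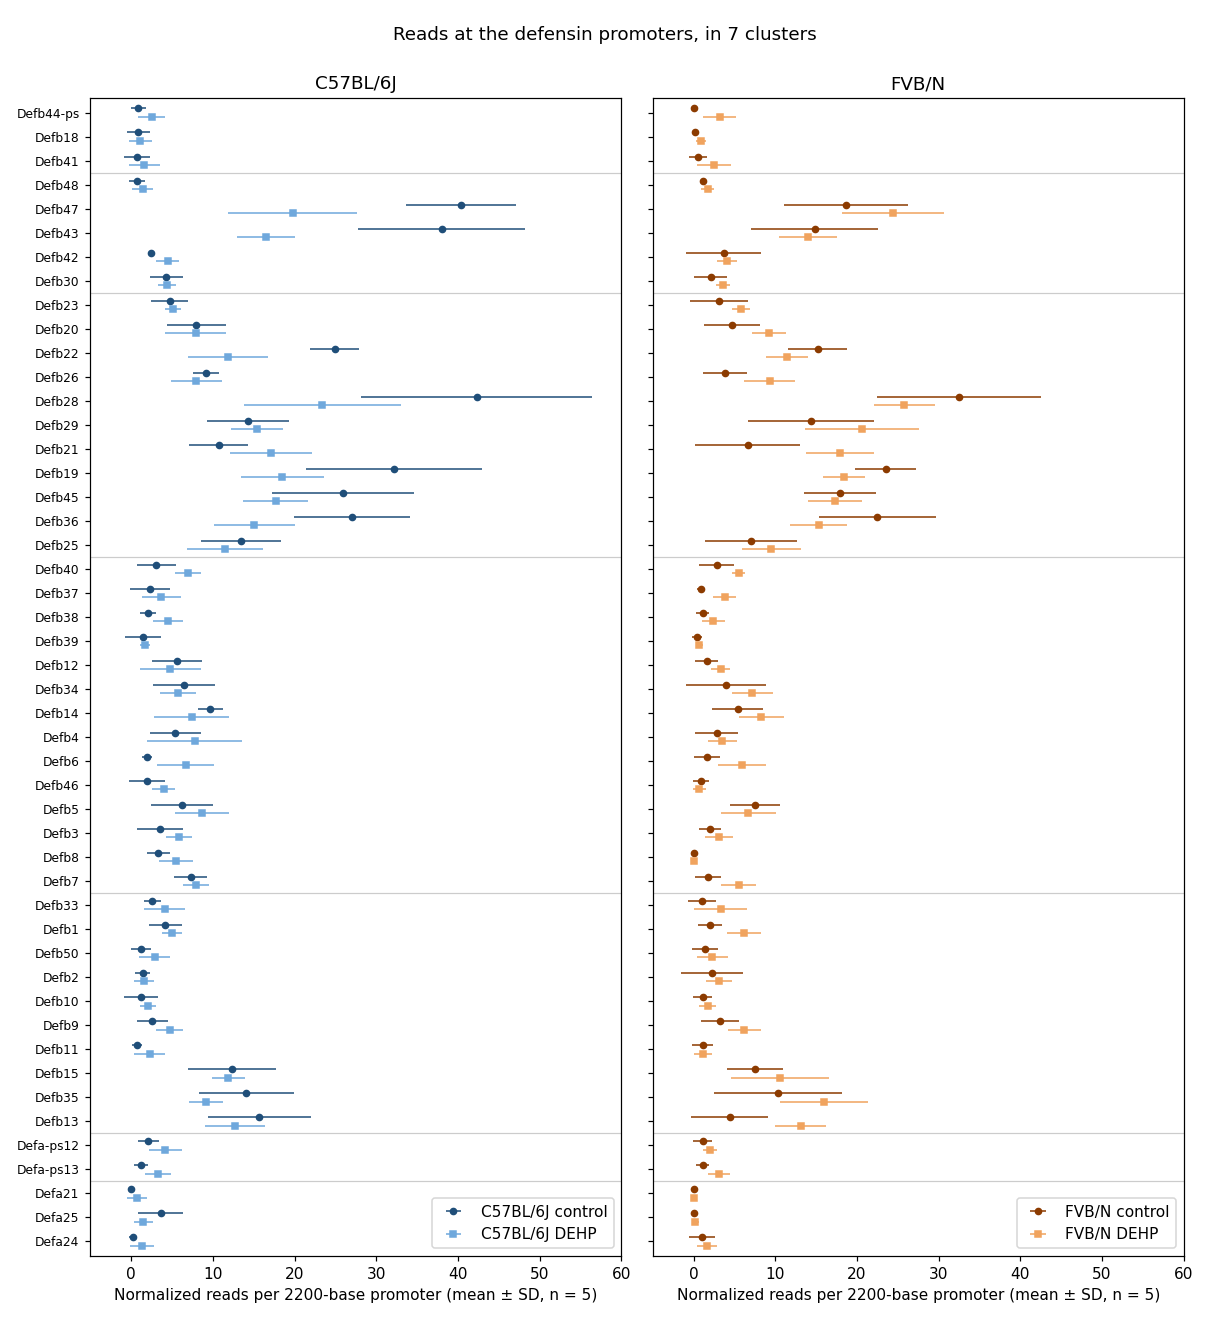
Normalized reads (x axis, authors' mean ± SD, n = 5 males) at each of 48 defensin promoters (y axis), grouped by cluster with grey lines between clusters, for C57BL/6J (left) and FVB/N (right). Circles are controls and squares are DEHP. Defb28, Defb47 and Defb43 reach 42.3, 40.4 and 38 reads in C57BL/6J controls, while the alpha-defensins at the bottom stay at or below 4.2 in every group.

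Among the beta-defensins taken here as epididymal (Defb15, Defb18, Defb20, Defb22, Defb23, Defb37, Defb41 and Defb42), Defb22, a glycosylated coat protein of sperm, had the highest level, though promoters outside that list were higher: 24.9 ± 3.0, 11.9 ± 4.9, 15.2 ± 3.6 and 11.4 ± 2.6 reads. Defb15 followed with 12.3 ± 5.4, 11.9 ± 2.0, 7.5 ± 3.4 and 10.6 ± 6.0 reads. Defb20 had 8.0 ± 3.6, 7.9 ± 3.7, 4.7 ± 3.4 and 9.2 ± 2.1. The others of the list were lower. Defb23 lay between 3.1 and 5.8 reads in the 4 groups, Defb42 between 2.4 and 4.5 and Defb37 between 0.9 and 3.8. Defb18 and Defb41, neighbours on chromosome 1 with 5 CG sites each, lay between 0.2 and 1.1 and between 0.5 and 2.5.

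Among beta-defensins of other epithelia, Defb14, a relative of human beta-defensin 3, had 9.7 ± 1.5, 7.4 ± 4.6, 5.4 ± 3.1 and 8.3 ± 2.8 reads with only 9 CG sites. In C57BL/6J controls this stood above 96.7% of the 2156 promoters within 3 CG sites of it. Defb1, made constitutively in kidney and airway epithelium, had 4.2 ± 2.0, 5.0 ± 1.2, 2.0 ± 1.5 and 6.2 ± 2.1 reads. The inducible Defb4 and Defb3 lay between 2.8 and 7.8 and between 2.0 and 5.9. Defb2 lay between 1.4 and 3.1, but only 51.1% of the 51-base sequences of its window occur once in the genome, and the authors discarded read pairs that aligned to several places.

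The alpha-defensins were the lowest family. Defa21 stood at 0 in both FVB/N groups and the C57BL/6J controls, and Defa25 had 3.6 ± 2.7, 1.5 ± 1.2, 0.0 ± 0.0 and 0.2 ± 0.4 reads. Defa24 lay between 0.2 and 1.6. Single-copy sequence made up 21.6% of the Defa21 window, 30.4% of Defa25 and 70% of Defa24, and the part of copies in these low reads was not tested. The pseudogenes Defa-ps12 and Defa-ps13, 82.1% and 95.4% single-copy, lay between 1.1 and 4.2 and between 1.1 and 3.3. Windows under 80% single-copy also included Defb7, Defb12, Defb35, Defb13 and Defb9.

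In the remaining clusters, the extremes were Defb48 on chromosome 14, at 0.7 to 1.7 reads, Defb39 in the first chromosome 8 block, at 0.4 to 1.7, and Defb11 in the second, at 0.7 to 2.3. Defb35 was the highest of the second block in both FVB/N groups, with Defb13 above it in both C57BL/6J groups, and had 14.1 ± 5.8, 9.2 ± 2.1, 10.3 ± 7.8 and 16 ± 5.4 reads.

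Across the 49 promoters, reads rose with CG sites. Spearman's rho was 0.77, 0.73, 0.73 and 0.73 in the 4 groups, given as a description since neighbouring promoters share sequence and all share libraries. Over all 22480 promoters, which held 1 to 303 CG sites, rho in C57BL/6J controls was -0.07. Up to 50 CG sites their median rose too, with 6.9 reads at 11 to 20 sites between the values given below. Members with 10 or fewer CG sites (22 of 49) had a median of 1.7 reads in C57BL/6J controls, and all 2006 promoters in that range had 1.4. Members with 21 to 50 CG sites (13 of 49) had a median of 14.3 reads, beside 10.2 over all 7550 such promoters. Per CG site that is a median of 0.588 reads beside 0.303.

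Single promoters left that order. Defb28 had 42.3 ± 14.1, 23.4 ± 9.6, 32.5 ± 10 and 25.8 ± 3.7 reads with 26 CG sites, above 97.3%, 98%, 99.3% and 98.3% of promoters within 3 CG sites. Defb36, with the most CG sites of the family (50), had 27.0 ± 7.1, 15.1 ± 5.0, 22.5 ± 7.2 and 15.3 ± 3.5 reads, above 91.5% to 94.2% of its like. Defb30, with 34 CG sites, had 4.3 ± 2.0, 4.4 ± 1.1, 2.1 ± 2.0 and 3.6 ± 0.9 reads, above only 22.3% to 27.3% of its like. Its CG-richest 300 bases ended 1 base before the gene's start. Defb43 and Defb47, in the same chromosome 14 cluster with 28 and 32 CG sites, had 38 ± 10.2 and 40.4 ± 6.7 reads in C57BL/6J controls.

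**Figure D2:**
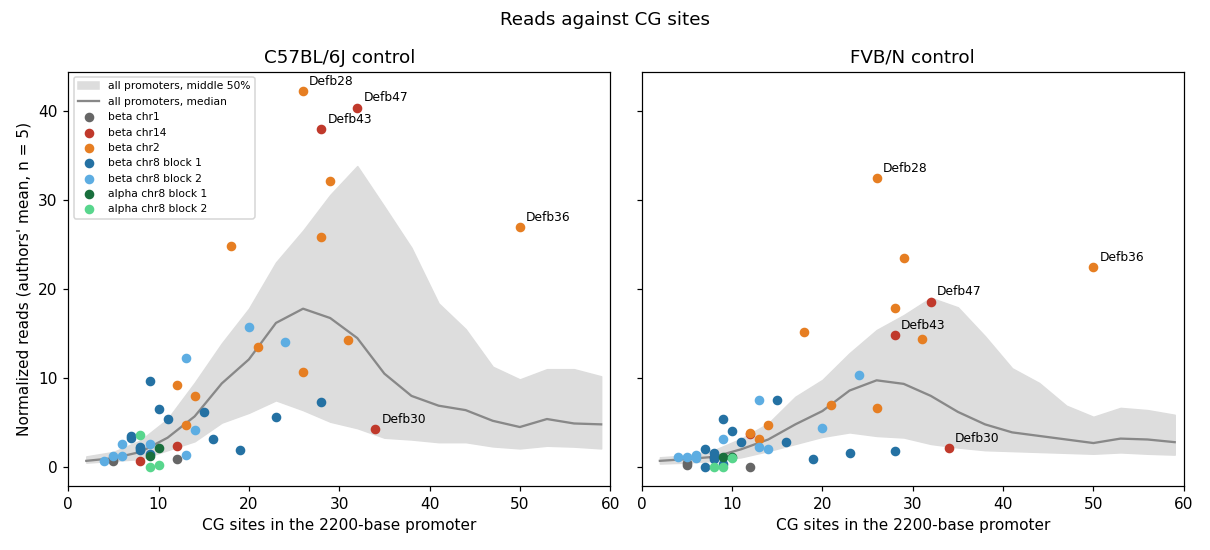
Normalized reads (y axis, authors' mean, n = 5) against the number of CG sites in the window (x axis) in C57BL/6J controls (left) and FVB/N controls (right). Dots are 48 defensin promoters coloured by cluster, the grey line is the median of all promoters in steps of 3 CG sites and the band their middle 50%. Defb28 (42.3 and 32.5 reads) stands above the band in both strains and Defb30 (4.3 and 2.1) lies near its lower edge in both.

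The spread between males at defensin promoters was set beside that of other promoters at the same level. Where the group mean was at least 5 and under 50 reads, the median ratio of SD to mean was 0.336 over 21 members in C57BL/6J controls, beside 0.358 over all promoters. With DEHP in C57BL/6J it was 0.312 beside 0.365. In FVB/N it was 0.433 beside 0.515 in controls and 0.290 beside 0.301 with DEHP. From 1 to under 5 reads the ratio was higher, at 0.687 beside 0.708 and 0.641 beside 0.542 in C57BL/6J, and 0.952 beside 0.900 and 0.548 beside 0.561 in FVB/N, controls first.

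The first comparison asked whether prenatal DEHP changed methylation at these promoters in C57BL/6J. Of the members, 3 with 18 to 32 CG sites fell and 1 with 8 CG sites rose. Defb43 fell from 38 ± 10.2 to 16.5 ± 3.6 reads, Defb47 from 40.4 ± 6.7 to 19.8 ± 7.9 and Defb22 from 24.9 ± 3.0 to 11.9 ± 4.9. Defb6, a beta-defensin of skeletal muscle and epithelia, rose from 1.9 ± 0.6 to 6.7 ± 3.5. These 4 members passed an adjusted p under 0.05 in a limma moderated test on the group means and SDs, with Benjamini-Hochberg adjustment over all 22480 promoters (n = 5 and 5).

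The differences were -21.5 ± 6.1 reads (SE, limma adjusted p = 0.00677) for Defb43, -20.6 ± 6.8 (0.0215) for Defb47, -13.0 ± 4.1 (0.0168) for Defb22 and 4.8 ± 1.4 (0.0114) for Defb6. In folds, Defb43 was 2.30-fold lower, Defb22 2.09-fold lower, Defb47 2.04-fold lower and Defb6 3.53-fold higher with DEHP. Thus 3 of 49 members (6.12%) were called lower where 13.3% of all promoters were, and 1 of 49 (2.04%) higher where 2.93% were. In none of the 4 were the ranges that 5 males can span apart. At an unadjusted p under 0.05, 5 members were higher beside 8.47% of all promoters and 6 lower beside 21.3%. The direction of the calls rested on the scale. With the group means scaled to equal sums the 3 lower calls were lost and 8 members were called higher, where 2608 of all promoters (11.6%) were higher and 693 (3.08%) lower. With TMM factors 2 members were higher beside 4.42% and 1 lower beside 8.70%, the calls of Defb47 (limma adjusted p = 0.0684) and Defb22 (0.0570) being lost. The call of Defb6 was kept under each of these scalings.

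The ratio followed CG content. On the log2 scale with a pseudocount of 1 read, the median DEHP over control ratio in C57BL/6J was 0.21 over the 49 members and -0.10 over all promoters. The members thus lay 0.31 above all promoters, and 0.30 to 0.32 above under the other scalings, although equal sums moved the median of all promoters to 0.33. Among members with 10 or fewer CG sites it was 0.60, beside 0.61 over all promoters of that range, and 19 of 22 were higher. Among members with 11 to 20 CG sites it was 0.16 beside 0.13. Among members with 21 to 50 it was -0.52 beside -0.34, and 9 of 13 were lower. Within each CG range the members therefore lay near other promoters. By cluster the median was 0.48 and 0.35 in the chromosome 8 beta-defensin blocks, -0.21 on chromosome 2 and 0.03 on chromosome 14.

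**Figure D3:**
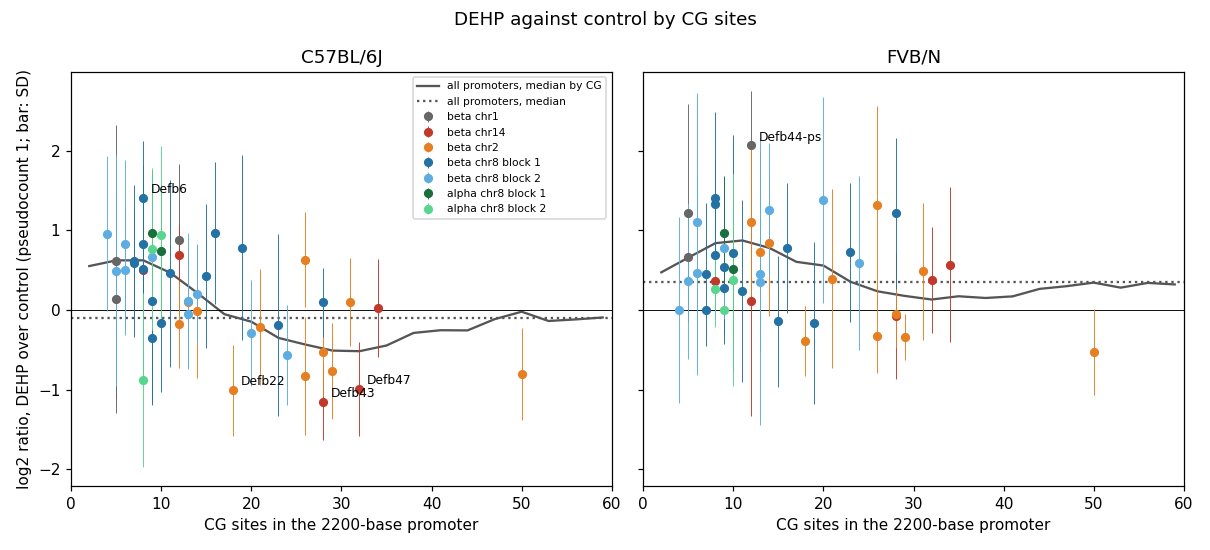
Log2 ratio of normalized reads, DEHP over control (y axis, pseudocount of 1 read, bars are the SD carried over from both groups), against CG sites per window (x axis) in C57BL/6J (left) and FVB/N (right). Dots are 48 defensin promoters by cluster, the solid line is the median of all promoters in steps of 3 CG sites and the dotted line their overall median (-0.10 and 0.35). Named promoters passed the test, and the members scatter around the solid line.

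DEHP and control libraries were submitted separately and sequenced with different read lengths and average depths, each set holding both strains. Treatment and submission therefore cannot be told apart in any DEHP comparison, while the strains were compared within a set. The sums of the group means over all promoters were 226268 in C57BL/6J controls and 141092 to 153283 in the other 3 groups. Of 3 genes with paternal imprint methylation, H19 had 17.5 to 25.3 reads and Meg3 5.2 to 25.8 but Rasgrf1 2.4 to 3.7. The 11 maternally methylated genes had group medians of 3.5 to 4.4, with Nnat at 9.5 to 26.5 and Inpp5f at 3.9 to 15. The 6 germline genes, taken as unmethylated in sperm, had medians of 7.95, 5.6, 8.7 and 5.25 reads. These lay above the medians over all promoters (5, 5.3, 3 and 4.9), with Tex101 at 7.9 to 16.9 and Mael at 8.7 to 14. The germline windows held a median of 60 CG sites, beside 45 over all promoters. Whether the windows of the imprinted genes hold the imprint itself was not tested, so their reads are no check of sperm identity.

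In FVB/N only Defb44-ps, a pseudogene, passed the test. It was listed at 0.0 ± 0.0 reads in controls and had 3.2 ± 2.0 with DEHP, a difference of 3.2 ± 0.85 (SE, limma adjusted p = 0.05 after rounding, under the threshold). No fold is given against a group listed at 0. With controls at 0 the difference could only be upward. The authors' read filter kept this promoter through groups that had reads, so the call is no independent support for its direction. The call was lost with equal sums (limma adjusted p = 0.0547) and with TMM factors (0.0537). It made 1 of 49 members (2.04%) higher beside 1.44% of all promoters, and no member was lower beside 1.35%. In C57BL/6J the same promoter had 0.9 ± 0.9 and 2.5 ± 1.6 reads.

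Further FVB/N members had an adjusted p between 0.05 and 0.1, all higher with DEHP. Defb21 had 6.6 ± 6.4 reads in controls and 17.9 ± 4.2 with DEHP (limma adjusted p = 0.0634), Defb13 had 4.4 ± 4.7 and 13.1 ± 3.1 (0.0636), and Defb37 had 0.9 ± 0.5 and 3.8 ± 1.4 (0.0834). Defb1 had 2.0 ± 1.5 and 6.2 ± 2.1 reads (limma adjusted p = 0.0925), and Defb6 had 1.6 ± 1.6 and 5.9 ± 2.9 (0.0993). At an unadjusted p under 0.05 there were 11 members higher beside 18.1% of all promoters and 0 lower beside 5.39%. The median log2 ratio in FVB/N was 0.49 over the members and 0.35 over all promoters, 0.14 apart and 0.13 to 0.18 apart under the other scalings. It was 0.53 over members with 10 or fewer CG sites beside 0.75, and 0.39 over members with 21 to 50 beside 0.24.

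Whether the DEHP difference differed between strains was tested directly as an interaction. No member passed (limma adjusted p under 0.05), beside 16 promoters (0.0712%) in all, and 6 members had an unadjusted p under 0.05 beside 17.2% of all promoters. The smallest was Defb47, with -20.6 reads in C57BL/6J and 5.8 in FVB/N, an interaction of -26.4 ± 7.8 (SE, limma adjusted p = 0.131). Defb43 had -21.5 and -0.8 reads, an interaction of -20.7 ± 6.7 (adjusted p = 0.153). Neither difference between strains passed the adjusted threshold.

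The strain comparison was led by Defb8. This promoter was listed at 0.0 ± 0.0 reads in both FVB/N groups and had 3.3 ± 1.4 reads in C57BL/6J controls and 5.5 ± 2.1 in C57BL/6J DEHP. No range of 5 values with those means and SDs could overlap between strains: in C57BL/6J the lowest possible male was 0.656 reads in controls and 1.60 with DEHP, and the highest possible in FVB/N was 0.139. The difference was 3.3 ± 0.88 reads in controls (SE, limma adjusted p = 0.0414) and 5.5 ± 1.0 with DEHP (adjusted p = 7.17e-05). Defb8 alone was apart in each comparison, beside 1.06% of all promoters in controls and 0.307% with DEHP. Its window is 93.3% single-copy and carries 1 variant between the strains in the authors' annotation. In all, 39 promoters were listed at 0 in both FVB/N groups, against 2 in both C57BL/6J groups. The authors kept a promoter only if a minimum number of read pairs aligned in several samples. Defb8 thus entered through its C57BL/6J reads alone. With FVB/N at 0 that filter fixes the direction, so the test and the lack of overlap are no independent support for it. Reads of both strains were aligned to mm10, the C57BL/6J genome, and whether the FVB/N genome holds this sequence or its reads could align there was not tested, so that a listed 0 need not be a measure of methylation.

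In controls, Defb43 and Defb13 also passed. Defb43 had 38 ± 10.2 reads in C57BL/6J and 14.8 ± 7.8 in FVB/N, a difference of 23.2 ± 6.0 (SE, limma adjusted p = 0.0344). Defb13 had 15.7 ± 6.3 and 4.4 ± 4.7, a difference of 11.3 ± 3.1 (adjusted p = 0.0477). With Defb8 these were 3 of 49 members (6.12%) higher in C57BL/6J beside 2.54% of all promoters, and none was lower beside 0.0267%, nor at an unadjusted p under 0.05, beside 0.507%. None of the 3 passed once the groups were put on equal sums, equal medians or TMM factors. Defb47 lay at the threshold (adjusted p = 0.0501).

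After DEHP, Defb8 and Defb46 were higher in C57BL/6J, 2 of 49 (4.08%) beside 0.912% of all promoters, and no member was lower beside 0.0712%, with 1 (Defb35) at an unadjusted p under 0.05 beside 1.93%. Defb46 had 4.0 ± 1.4 reads in C57BL/6J and 0.7 ± 0.8 in FVB/N, a difference of 3.3 ± 0.94 (SE, limma adjusted p = 0.0472). No FVB/N male could exceed 2.83 normalized reads in controls or 2.27 with DEHP. The authors' read filter was therefore likely met through C57BL/6J, so the Defb46 call is no independent support for its direction. This call was lost with equal sums (limma adjusted p = 0.0540), equal medians (0.0817), TMM factors (0.0717) and pooled variance (0.112). The window carries 36 strain variants, the most of any member. Over the 9 members with 10 or more variants the median strain log2 ratio was 0.58 in controls and 0.65 with DEHP. Over the 21 with 1 to 9 variants it was 0.56 and 0.20, and over the 19 without a variant 0.58 and -0.06. Of the 9, 5 were higher in C57BL/6J in controls and 8 with DEHP, and of the 19, 17 and 8. Whether variants bear on the strain difference was not tested. Defb43 and Defb13 were closer between strains with DEHP than in controls, at 16.5 and 14 reads for Defb43 and 12.7 and 13.1 for Defb13. The median strain ratio over all members was 0.58 in controls and 0.07 with DEHP, beside 0.54 and 0.04 over all promoters.

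**Figure D4:**
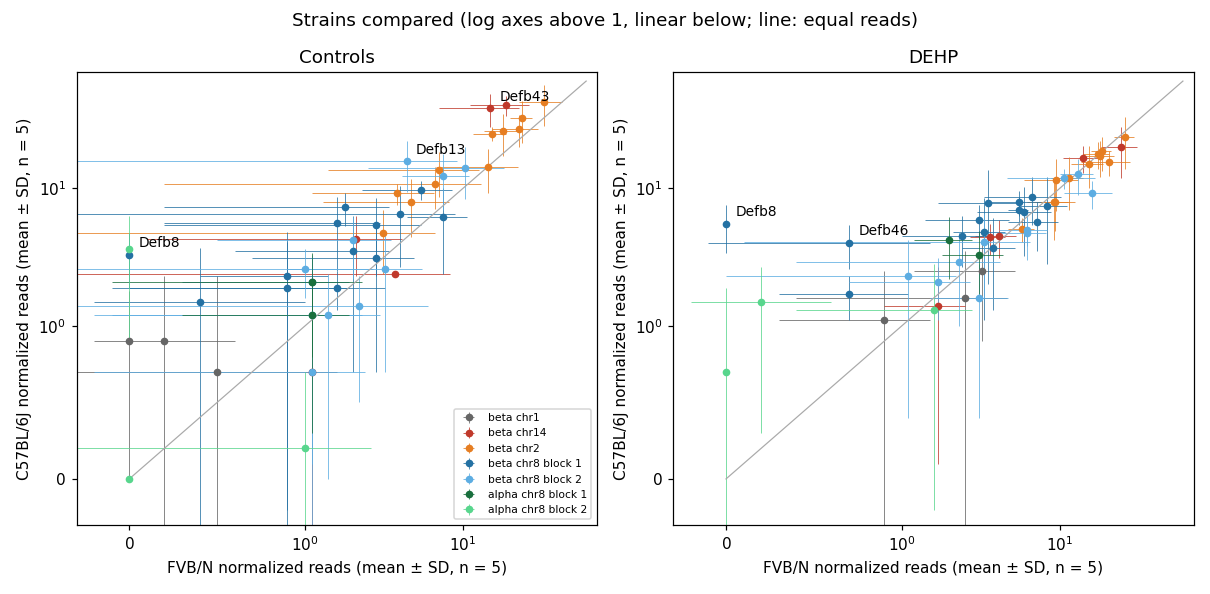
Normalized reads at 48 defensin promoters in C57BL/6J (y axis) against FVB/N (x axis), authors' mean ± SD (n = 5), in controls (left) and with DEHP (right). Axes are logarithmic above 1 read and linear below, the grey line marks equal reads, and named promoters passed the test. Defb8 lies at 0 on the FVB/N axis in both panels, at 3.3 and 5.5 reads on the C57BL/6J axis.

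A further 6 promoters carry a defensin name in RefSeq under another symbol. They were not members and were looked at after their values were seen. Gm15284 (Defa30), with 30 CG sites where the alpha-defensin members held 7 to 10, had 20.2 ± 5.5, 4.1 ± 1.2, 0.8 ± 0.9 and 0.0 ± 0.0 reads. Its interaction was -15.3 ± 2.7 reads (SE, limma adjusted p = 0.00631), and 66.0% of its window is single-copy. With FVB/N controls near 0 a fall could hardly show in that strain. The interaction is therefore no independent support for a strain difference in the DEHP effect. The window carries 14 strain variants, and whether FVB/N reads could align there was not tested. None of the other 5 passed in any comparison.

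Genes of the same settings were counted against the same shares of all promoters, 2.93% higher and 13.3% lower with DEHP in C57BL/6J, 1.44% higher in FVB/N and 2.54% higher in C57BL/6J controls. Of 24 measured genes for other secreted epididymal proteins, 1 was called higher (Crisp4, 0.5 to 3.3 reads) and 1 lower (Wfdc8, 38.5 to 16.6) with DEHP in C57BL/6J, and 1 higher in FVB/N (Spag11b, 5.1 to 14). Of 12 antimicrobial proteins of other families, 3 were called lower in C57BL/6J (S100a8, Ngp and Ltf) and 0 higher. Of 8 genes for processing, sensing and receptors, 1 was called lower (Mc1r, 28.5 to 15.2 reads) and none in FVB/N. Between strains, Rnase9 alone was called, higher in C57BL/6J controls (8.8 against 1.5 reads).

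Testis expression scores, which the authors added from other data on a scale not stated, were present for 21 members. Their median in total testis was 3.82 beside 5.82 over 17130 genes. Defb19, a beta-defensin known from Sertoli cells, was the highest, with 12 in Sertoli cells, above 99.4% of genes. Its score was near that in spermatogonia (11.5), seminiferous tubules (11.4) and total testis (11), and lower in spermatids (7.46) and spermatocytes (8.53). Defb21 (6.41) and Defb45 (5.97) also stood above the median in total testis. The Defb19 promoter had 32.2 ± 10.8, 18.5 ± 5.1, 23.5 ± 3.7 and 18.4 ± 2.6 reads, the fourth highest of the 49 in C57BL/6J controls.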

How the data were processed

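The authors aligned read pairs to mm10 with Bowtie 0.12.7, discarded pairs aligning to several places, counted pairs per promoter window and normalized them with edgeR. The deposited signal values are group means and SDs of normalized reads, with 1 decimal. The deposited expression score has no stated scale. CG sites and strain variants are the authors' annotation. Their columns of fold changes, p-values and FDR were not used, and single-library values are not analysed here. Depth per library was unknown, and the paper gives only averages, higher for DEHP than for control libraries. Precision therefore comes from the SD alone.

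Group means and SDs were tested with limma 3.58.1 (R 4.3.3) as moderated contrasts, with the variance trended on the mean and Benjamini-Hochberg adjustment over 22480 promoters. The method was also run on simulated data whose group means differed only at changed promoters, unlike these data. No result here rests on that run. Ranges were called apart when the mean ± 1.79 SD, the farthest 1 of 5 values can lie, did not overlap. Each end was widened by 0.139, since mean and SD are rounded to 0.1. Single-copy shares count 51-base sequences found once in GRCm38. Exons are from GENCODE M21. Named genes were, by rule, those highest and lowest per cluster, those called or apart, and fixed role lists. In the counts and medians 1 member is included that is not reported here singly or plotted. Members and lists were chosen with earlier results of these data known. Alternatives were other scalings, a log2 scale, pooled variance, a filter, a pseudocount of 0.1 and Bonferroni.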

Additional observations from a re-analysis of the deposited data

How the results depend on the processing

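The count of called members depended on how the group means were scaled. With equal sums it was 8 for DEHP in C57BL/6J (all higher, beside 2608 higher and 693 lower of all promoters) and 0 for DEHP in FVB/N. Between strains it was 0 in controls and 1 with DEHP (beside 184 higher and 17 lower). With equal medians it was 7 (6 lower, beside 550 higher and 3544 lower), 3 (2 lower, beside 57 and 1230), 0 and 1 (beside 141 and 21). With TMM factors DEHP in C57BL/6J gave 3 (2 higher, 1 lower, beside 994 and 1955), DEHP in FVB/N 0, strains in controls 0 and strains with DEHP 1 (beside 157 and 18). With pooled variance DEHP in FVB/N gave 2 (all higher, beside 574 higher of all promoters and fewer lower). Strains in controls gave 6 (all higher, beside 3277 higher and 41 lower) and strains with DEHP 1 (beside 70 and 4). The filter at a mean of 1 gave 5 between strains in controls (all higher, beside 801 and 7). In the main test 3 members were called there, beside 570 higher and 6 lower of all promoters. The larger counts came with more calls over all promoters, so they cannot be read as particular to defensins. Bonferroni gave 0, 0, 0 and 1 in the 4 comparisons (the last beside 53 and 4). The interaction gave 0 members under each alternative run. Defb8 between strains with DEHP passed in 7 of 7 alternatives, Defb6 in 6, Defb43 with DEHP in 5, and Defb47, Defb22 and Defb44-ps in 4. The others passed in 2 or 3. For Defb8, scaling leaves the 0 of FVB/N at 0, so the other scalings could not change the direction of that call. The same holds for Defb44-ps, listed at 0 in FVB/N controls.

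With equal medians the median strain ratio over the members became -0.022 on the log2 scale in controls and -0.017 with DEHP. In controls it was 0.58 as deposited and 0.03 with equal sums or TMM factors. Taking mean ± 1 SD as the range, 20 member comparisons were apart in place of 2. The share of all promoters apart under that range was not counted, so the 20 cannot be read as particular to defensins.

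No paired analysis was possible because the deposited columns are group means and the labels give no replicate numbers. For the same reason leaving out each male was not run. Leaving out overlapping windows was not run, since none overlapped. Levels near 0 limit the alpha-defensins and chromosome 1.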
